A study of Mus musculus with 6 samples.

Results

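The miRNAs described here, in exosomes of LPS-treated and untreated macrophages, are both arms of miR-223, miR-142a and miR-342, together with miR-22-3p and miR-191-5p. They were taken by name, as 8 of the 1881 mouse miRNAs on the array, with every probe that carries one of these names. Exosomes are small vesicles that cells shed into the medium and that carry miRNAs. The study compared exosomes of RAW 264.7 cells, a mouse macrophage-like line started from a virus-induced tumour, after addition of lipopolysaccharide (LPS), a component of the bacterial outer membrane that macrophages sense through TLR4, with exosomes of cells that were not treated. Vesicles were taken from the culture medium by size-exclusion chromatography, and their RNA was read on 6 one-colour Agilent mouse miRNA arrays.

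In the LPS group (3 samples) the cells were incubated in complete medium with 2 µg/mL LPS, and the medium was collected after 72 h. In the control group (3 samples) the cells were normal RAW 264.7 cells; no incubation time is given for them, so culture time and LPS cannot be told apart. All samples come from 1 cell line, and nothing in the labels says that replicates were separate cultures, so the p-values cover the spread among these 6 samples alone, which may be technical in part or in whole. A signal from vesicles is a bulk measure: more vesicles and more miRNA per vesicle cannot be told apart. Precision is limited by having 3 arrays in each group.

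miRNAs are cut from a hairpin precursor, either arm of which can be loaded onto an Argonaute protein, and they repress mRNAs that pair with their seed, bases 2 to 8. miR-223 and miR-142 are made mainly in blood cells: miR-223 is a myeloid miRNA that restrains neutrophil production and the NLRP3 inflammasome, and miR-142 is made throughout the blood lineages. miR-342 lies within the gene Evl and is expressed in myeloid and lymphoid cells, whereas miR-22, from its own host transcript, and miR-191, from within Dalrd3, are expressed in many tissues.

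The 8 mature sequences are given to show the seed of each member and the strand of the hairpin it comes from. They run 5′ to 3′ with the seed in capitals (RefSeq, build GRCm38.p6), under the names in the files, whose prefix mmu stands for mouse.
mmu-miR-223-3p: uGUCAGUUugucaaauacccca
mmu-miR-223-5p: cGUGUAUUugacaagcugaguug
mmu-miR-142a-3p: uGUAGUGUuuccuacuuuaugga
mmu-miR-142a-5p: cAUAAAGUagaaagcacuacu
mmu-miR-342-3p: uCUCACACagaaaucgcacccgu
mmu-miR-342-5p: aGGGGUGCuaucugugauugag
mmu-miR-22-3p: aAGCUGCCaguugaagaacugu
mmu-miR-191-5p: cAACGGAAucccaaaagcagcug

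The 8 seeds differ from one another, and among the 1608 miRNAs on the array with a RefSeq sequence 0 others share any of them. No group of members shares a seed. All lie on the plus strand: miR-223-3p at chrX:96242884-96242905 and miR-223-5p at chrX:96242842-96242864, in a precursor that overlaps the gene F630028O10Rik. miR-142a-3p is at chr11:87756903-87756925 and miR-142a-5p at chr11:87756867-87756887, opposite the antisense precursor Mir142b. miR-342-3p is at chr12:108658680-108658702 and miR-342-5p at chr12:108658638-108658659. miR-22-3p is at chr11:75463772-75463793 in the non-coding host gene Mir22hg. miR-191-5p is at chr9:108568325-108568347, and its precursor lies 384 bases from that of miR-425.

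The precursors of miR-223, miR-142a and miR-342 are represented by both arms, which are in capitals in the hairpins (RefSeq, GRCm38.p6, 5′ to 3′).
Mir223: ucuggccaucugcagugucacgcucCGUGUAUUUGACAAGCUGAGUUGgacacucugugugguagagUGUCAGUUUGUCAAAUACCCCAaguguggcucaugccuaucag
Mir142: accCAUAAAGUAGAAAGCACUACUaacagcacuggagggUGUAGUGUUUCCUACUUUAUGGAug
Mir342: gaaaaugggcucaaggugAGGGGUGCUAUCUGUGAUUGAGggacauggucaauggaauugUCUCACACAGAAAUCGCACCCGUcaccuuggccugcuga

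The 2 groups differed in overall brightness. The 3 LPS arrays detected 412 to 446 miRNAs and the control arrays 213 to 228. Taken over the 198 miRNAs that every array detected, the 75th percentile was 4.67 times as high in LPS as in control before scaling, while the RNAs marked as spike-ins had a ratio of 0.894. The scanner software read spots at 0.812 to 0.829 of their nominal size on LPS arrays and at 0.6 on control arrays. That fraction goes into the summed signal that the files give per probe. Its part in the signals used here was not tested. The controls and LPS 1 lay in the first row of the slide, and LPS 2 and LPS 3 in the second. Because the arrays differed in brightness, signals were divided by each array's 75th percentile over the shared miRNAs. The term "scaled signal" means this value, and changes are LPS minus control on its log2 scale. A miRNA was detected where the total of at least 1 of its probes exceeded 3 errors, and 412 miRNAs detected on all 3 arrays of a group were tested.

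Before scaling, miR-223-3p, the strand of its hairpin that is usually retained, gave a processed signal of 382, 445 and 436 on LPS arrays 1 to 3, against 38.2, 45.2 and 44.4 on control arrays 1 to 3. Its scaled signals were 194, 196 and 193 in LPS, against 91.2, 91.2 and 93.2 in control. The groups did not overlap and the replicates of each lay within a few percent of each other. Scaled miR-223-3p averaged 194 ± 1.09 in LPS and 91.9 ± 1.13 in control (SD, n = 3 each), a rise of 1.08 in log2 units (SE 0.034, 2.12-fold; limma with Benjamini-Hochberg adjustment over all tested miRNAs, adjusted p = 2.13e-07). Without scaling the ratio was 9.88, and the median change of the 198 shared miRNAs was then 2.99 on the log2 scale.

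The opposite strand, miR-223-5p, was detected on 0 arrays. Its processed signals were 2.18, 2.19 and -1.61 in LPS, against 3.61, 0.772 and 1.895 in control. These values lie around 0, where the background has been subtracted, and no level or direction is read from them. The 2 arms have different probes, so their signals are not set against each other.

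miR-142a-3p, which in blood cells is a major product of its hairpin, had processed signals of 208, 321 and 321 in LPS, against 36.5, 39.1 and 35.5 in control. The scaled signals were 105.6, 141 and 142 in LPS, against 87.2, 78.9 and 74.6 in control. The groups did not overlap, but LPS 1 lay closer to control 1 than to the other LPS arrays. The scaled mean was 130 ± 20.7 in LPS and 80.2 ± 6.39 in control (SD, n = 3 each), a rise of 0.68 (SE 0.13, 1.60-fold; limma, adjusted p = 0.0024). miR-142a-3p was well above background on 3 of 3 LPS arrays and 2 of 3 control arrays; on control 1 it was so at 50% of its spots, short of the majority required. With the slide row as a block the change was 0.40, and within the first row it was 0.43. As all controls lie in the first row, both settings set LPS 1 alone against the controls. The row and the low value of LPS 1 cannot be told apart. The call was lost under quantile normalization (0.24, limma, adjusted p = 0.186) and normexp background correction (0.15, limma, adjusted p = 0.145).

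miR-142a-5p, the other product of that hairpin, was detected on all 3 LPS arrays and on 0 control arrays. Its processed signals were 153, 218 and 212 in LPS, against 14.2, 16.9 and 15.3 in control. Its scaled signals of 77.9, 95.8 and 94.1 in LPS stood above 33.8, 34.1 and 32.0 in control, again with LPS 1 the lowest of its group. Since the control signal was well above background on no array, only a bound can be given. miR-142a-5p was at least 1.28-fold higher in LPS, the LPS mean being set against the lowest signal well above background on each control array or the probe's own, whichever was higher. The measured means were 89.3 ± 9.89 in LPS and 33.3 ± 1.13 in control (SD, n = 3 each), and the fit gave 1.42 (SE 0.088; limma, adjusted p = 6.59e-06). Within the first slide row the fitted change was 1.26.

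LPS 1 was set against the other LPS arrays for the 5 members well above background on all of them. Relative to the mean of LPS 2 and LPS 3, LPS 1 was lower by 0.42 on the log2 scale for miR-142a-3p, and 2 of the 351 miRNAs well above background on all LPS arrays dropped further. miR-142a-5p was lower by 0.29, with 11 of the 351 dropping further. miR-223-3p, miR-342-3p and miR-22-3p differed by -0.0011, -0.015 and -0.028. Without LPS 1 the change of miR-142a-3p was 0.82, the highest value that leaving out any 1 array gave. The part of the slide row in this was not tested.

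miR-342-3p, a miRNA that rises when human promyelocytic leukaemia cells are made to mature, had processed signals of 1703, 1971 and 1999.7 in LPS, against 200.6, 221 and 231 in control. Its scaled signals were 867, 866 and 886 in LPS, against 478, 445 and 484 in control. All LPS arrays lay above all control arrays. The scaled mean was 873 ± 11.6 in LPS and 469 ± 21.1 in control (SD, n = 3 each), a rise of 0.90 (SE 0.046, 1.86-fold; limma, adjusted p = 2.43e-06), and before scaling the ratio was 8.70. Within the first slide row the change was 0.92.

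miR-342-5p, the opposite arm, was detected on all 3 LPS arrays and on 0 control arrays, but was well above background on no array. Its processed signals were 23.3, 27.5 and 26.4 in LPS, against 9.43, 8.64 and 7.61 in control. Scaling turned this order round, to 11.8, 12.1 and 11.7 in LPS against 22.5, 17.4 and 15.97 in control, because the dim control arrays were multiplied by more. The fit gave -0.64 (SE 0.13, limma, adjusted p = 0.0028), yet without scaling it gave 0.45 (limma, adjusted p = 0.0004). In the unscaled fit the control values were raised to a floor, the lowest value used, so 0.45 is a distance from that floor. No direction is read and no fold is given.

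miR-22-3p, a broadly expressed miRNA, had processed signals of 3375, 3937 and 4000.5 in LPS, against 406, 484 and 475 in control. Its scaled signals were 1718, 1729 and 1773 in LPS, against 968, 977 and 997 in control. The groups were separated by far more than the spread within either. The scaled mean was 1739.8 ± 29.1 in LPS and 981 ± 14.8 in control (SD, n = 3 each), a rise of 0.83 (SE 0.036, 1.77-fold; limma, adjusted p = 1.03e-06), against a ratio of 8.29 before scaling. Within the first slide row the change was 0.84.

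miR-191-5p was detected on all 3 LPS arrays and on 0 control arrays, and was well above background on 2 of the LPS arrays. Its processed signals were 30.1, 39.7 and 37.6 in LPS, against -6.23, -5.60 and -3.62 in control. All control values lay below 0 and were set to the floor of 9.89 scaled units, from which the fitted change of 0.73 was measured (SE 0.055; limma, adjusted p = 1.8e-05). With the floor doubled the change was 0.00. No bound was set, since the probe was not well above background on all 3 LPS arrays, so no fold is given. Its brightest probe, cagctgcttttggg, pairs with bases 10 to 23 of the miRNA and with 0 bases of the seed.

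**Figure D1:**
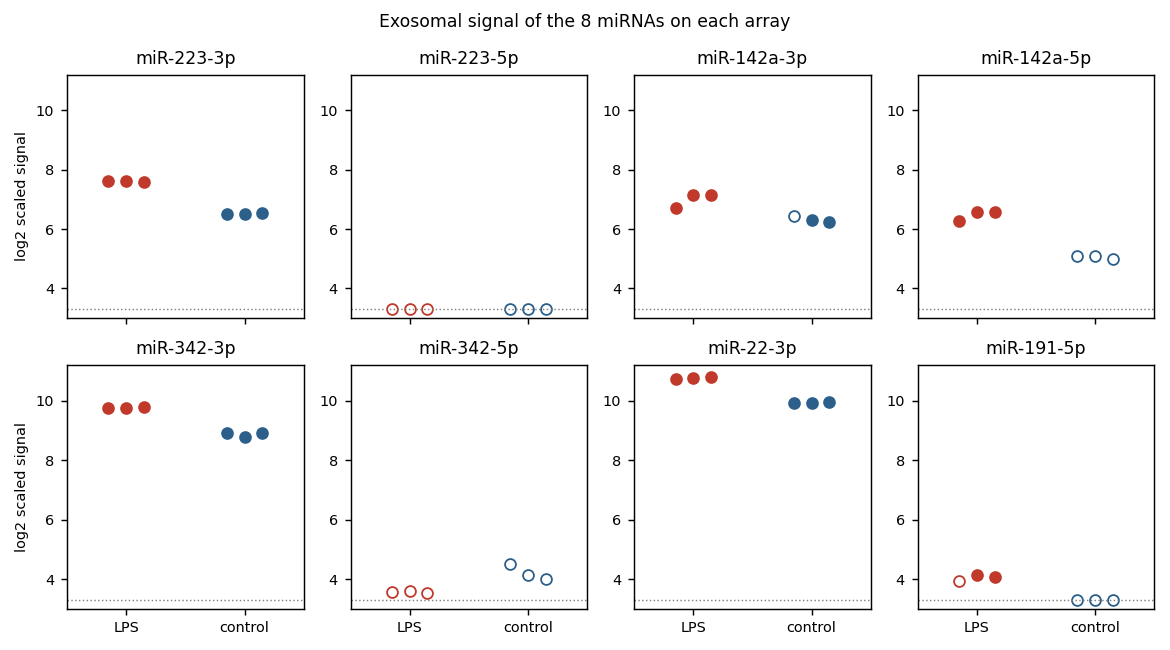
Scaled signal (log2, vertical axis) of the 8 miRNAs on each of the 6 arrays, LPS in red and control in blue, replicates 1 to 3 from left to right; filled points were well above background, and the dotted line is the floor. miR-223-3p, miR-342-3p and miR-22-3p form tight groups with every LPS array above every control array, LPS 1 is the lowest LPS array for both miR-142a arms, and miR-223-5p lies at the floor throughout.

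Of the 8 miRNAs, 7 passed the detection filter, and 6 of these were called higher and 1 lower in LPS. Over all 412 tested miRNAs 65.5% were called higher and 26.7% lower, 92.2% in either direction, so calls were the rule on these arrays. The 3 members detected in LPS only could pass the filter only through the group in which they were detected. The 4 members detected on all 6 arrays, miR-223-3p, miR-142a-3p, miR-342-3p and miR-22-3p, were all called higher; of the 198 miRNAs of that kind 58.1% were called higher and 38.4% lower. Each of the 4 had every LPS array above every control array, as had 58.6% of the 198.

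In size the 4 changes lay in the middle of the array. Their median was 0.86, against 0.77 over the 198 miRNAs detected on all arrays, whose quartiles were -1.63 and 1.49, and 0.85 over all tested. Of the 198, 62.1% changed by less than miR-223-3p, 56.1% by less than miR-342-3p, 52.0% by less than miR-22-3p and 47.5% by less than miR-142a-3p. Ranked from the highest change down among the 412, miR-223-3p was at 169, miR-342-3p at 197, miR-22-3p at 210 and miR-142a-3p at 230.

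The sizes depend on the processing. The median change of the 198 ran from 0.26 with normexp background correction to 3.16 with scaling to the spike-ins, so each of the 4 is also given relative to that median. A factor per array leaves this measure as it is, whereas other choices move it: with normexp it was 0.39 for miR-22-3p and 0.16 for miR-223-3p. As reported, miR-223-3p stood at 0.31 above the median, miR-342-3p at 0.13, miR-22-3p at 0.06 and miR-142a-3p at -0.086. Over 25 alternative settings miR-342-3p was above the median in 25, miR-22-3p in 24, miR-223-3p in 23 and miR-142a-3p in 3, which were the 2 measures built from the files' probe totals and the fit without LPS 1. Settings that change only the array factor, the floor, the variance model or the replicate block repeated the reported values, so the counts are not of independent readings. Where the signal itself changed, miR-223-3p ran from -0.17 with the second brightest probe to 0.54 with the gene total. In the authors' value table it was at -0.012. All 4 raw changes were above 0 in all 25.

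**Figure D2:**
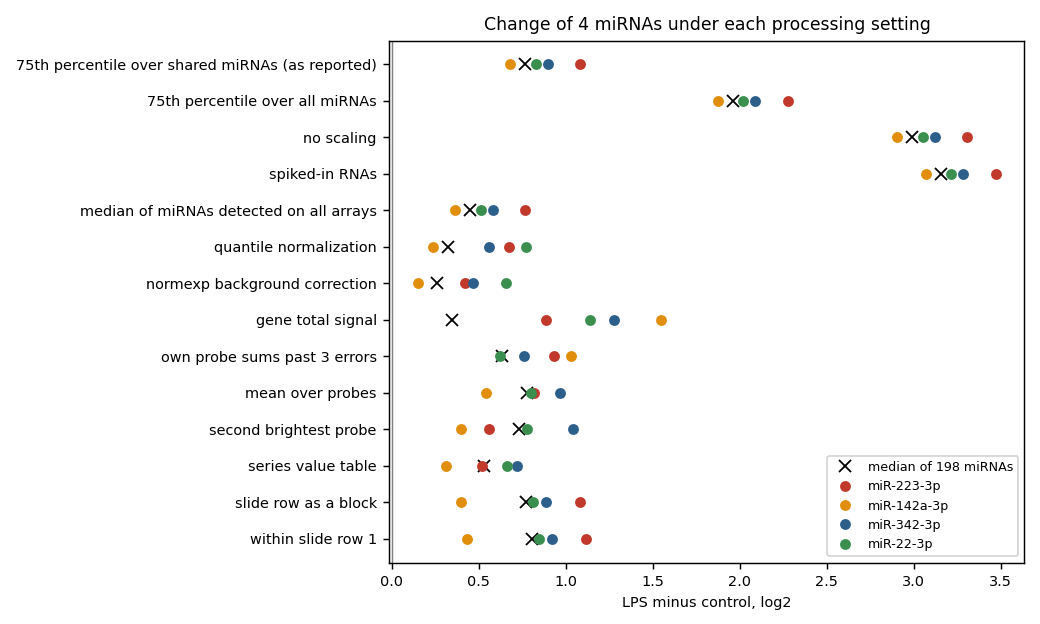
LPS minus control on the log2 scale (horizontal axis) for the 4 miRNAs detected on all arrays, under the settings named beside the rows; the cross is the median of the 198 miRNAs detected on all arrays. The points keep their distance from the cross with the spike-ins (median 3.16), without scaling and with the other percentile and median scalings, while their distance and order change with normexp (median 0.26), quantile normalization and the choice of probe or signal.

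The members were then compared with each other within each array, which removes the scaling. The quantity is the log2 difference between 2 miRNAs on 1 array. Its level compares different probes and is not interpreted. Its shift between the groups shows unequal change of the 2 signals, which also depends on the background correction and the probe. For miR-223-3p minus miR-22-3p the difference was -3.144, -3.144 and -3.197 on LPS arrays and -3.408, -3.421 and -3.42 on control arrays, without overlap. The shift was 0.25 (two-sided exact permutation test over 6 samples, p = 0.1, adjusted over 6 pairs 0.15), and 3 against 3 samples cannot go below 0.1.

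The shift was 0.40 for miR-223-3p against miR-142a-3p, 0.19 for miR-223-3p against miR-342-3p and 0.069 for miR-342-3p against miR-22-3p, each without overlap between groups and each with an exact permutation p of 0.1 (adjusted 0.15). Between miR-342-3p and miR-142a-3p the shift was 0.22 (exact permutation p = 0.3, adjusted 0.36), and between miR-22-3p and miR-142a-3p it was 0.15 (p = 0.5, adjusted 0.5); in both the groups overlapped. None of the 6 shifts passed 0.05, a level this design cannot reach. Within the first slide row, LPS 1 alone against the controls, the shift of miR-223-3p against miR-22-3p was 0.27 and against miR-342-3p 0.19. Against miR-142a-3p it was 0.68, which holds the low miR-142a-3p value of LPS 1. The shifts depended on the signal used. That of miR-223-3p against miR-22-3p was -0.71 with normexp, -0.25 with the gene total of the files and -0.15 in the authors' value table, and 0.017 with the mean over probes. That of miR-223-3p against miR-342-3p was -0.62, -0.39 and -0.20 in the same order, and -0.15 with the mean over probes. The gene total turned every shift but that of miR-342-3p against miR-22-3p.

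**Figure D3:**
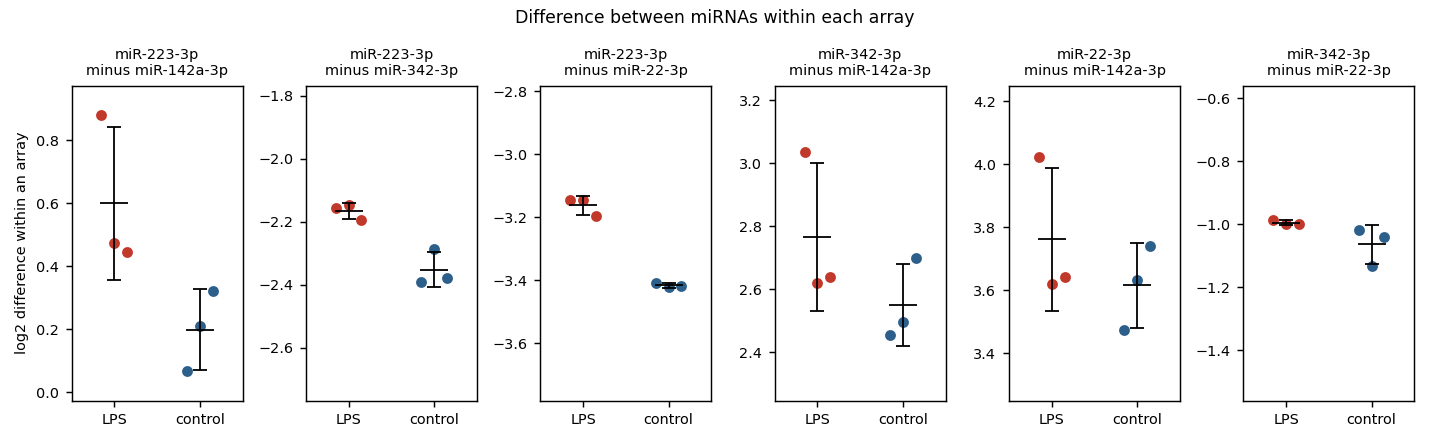
Log2 difference between 2 miRNAs within each array (vertical axis), LPS in red and control in blue, with the mean and SD as lines (n = 3 each), 1 panel for each of the 6 pairs. LPS points lie above control points in the 3 panels led by miR-223-3p, with shifts of 0.40, 0.19 and 0.25, and overlap with them in the 2 other panels that hold miR-142a-3p.

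The members just compared and miR-142a-5p have 2 probes each, which give a second reading of the same miRNA. All probes of the 8 were exact complements that reach the 3′ end of their miRNA, and the longer probe of miR-142a-3p covers the whole of it. For miR-223-3p they differ by the last base, shown here because they answered differently; capitals mark bases that pair with the seed (5′ to 3′, from the array files; the miRNA's position is given with its sequence).
miR-223-3p probe of 21 bases: tggggtatttgacaAACTGAC
miR-223-3p probe of 20 bases: tggggtatttgacaAACTGA

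The 21-base probe of miR-223-3p gave 382, 445 and 436 in LPS, as above, and its 20-base probe 140.3, 166 and 152 in LPS, against 20.3, 23.3 and 23.1 in control, where it was well above background on no array. The ratio of the longer to the shorter probe was 2.72, 2.69 and 2.87 in LPS, against 1.89, 1.94 and 1.92 in control. The ratio did not overlap between groups, and the change of miR-223-3p was 1.08 by the longer probe and 0.56 by the shorter, where the control spots of the shorter probe were dim. Relative to the median of the 198 taken the same way, that second reading was -0.17.

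For miR-342-3p both probes were well above background on all 6 arrays, and they gave 0.90 (17 bases) and 1.04 (16 bases). Their ratio was 1.39 ± 0.030 in LPS and 1.53 ± 0.094 in control (SD, n = 3 each). For miR-22-3p both probes were again well above background throughout, with 0.83 (19 bases) and 0.78 (18 bases), and a ratio of 3.35 ± 0.34 in LPS and 3.22 ± 0.22 in control. These 2 miRNAs had both readings measured on all arrays, with the same direction in each.

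For miR-142a-3p the probes gave 0.68 (23 bases) and 0.40 (22 bases), with the 22-base probe well above background on no control array. The ratio was 2.19 ± 0.23 in LPS and 1.80 ± 0.16 in control. For miR-142a-5p they gave 1.42 (18 bases) and 1.12 (19 bases), with neither well above background in control.

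**Figure D4:**
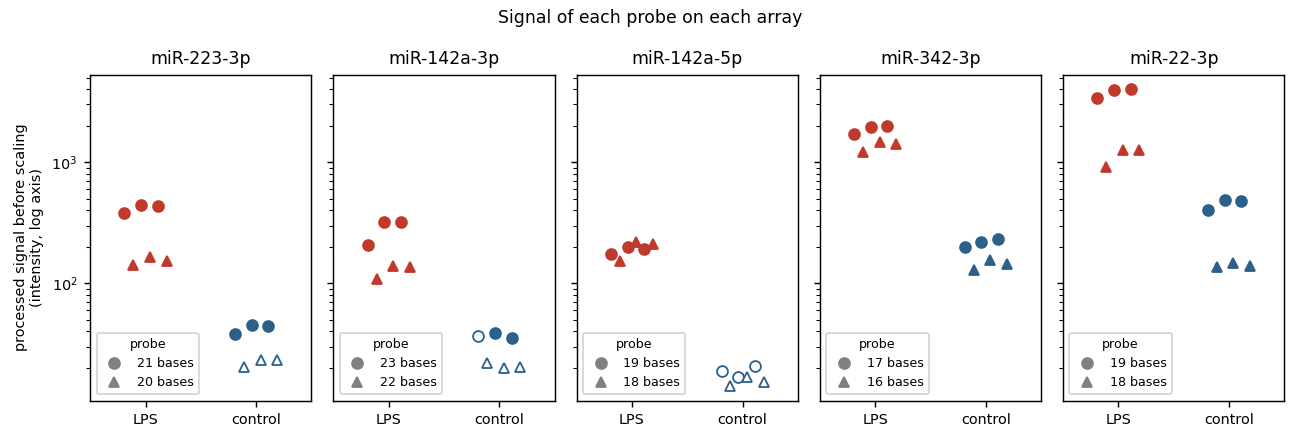
Processed signal before scaling (log axis) of each probe on each array for 5 miRNAs, LPS in red and control in blue; circles are the longer and triangles the shorter probe, and filled points were well above background. The circles of miR-223-3p stand 2.69 to 2.87 times above its triangles in LPS and 1.89 to 1.94 times in control, whereas both probes of miR-342-3p and of miR-22-3p are filled in every group.

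The files also hold a total signal per miRNA, and for 3 members it was not their own. On LPS arrays the total of miR-342-5p was 841, 1008 and 989.5, of which its own probe totals supplied 3.11, 3.76 and 3.55; the rest equalled the total of miR-342-3p. The total of miR-191-5p was 34.9, 41.3 and 274 in LPS, with 7.99, 10.1 and 9.60 of its own and the rest equal to the total of miR-191-3p. On control 1 the total of miR-223-3p was 26.1, of which 8.11 was its own and 17.97 that of miR-222-3p. A reading of these totals would place miR-342-5p beside miR-342-3p in LPS (a change of 6.09), so they served only as an alternative.

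Summed over the detected members, the 8 miRNAs held 0.981%, 1.01% and 1.03% of the detected processed signal on LPS arrays, against 0.677%, 0.683% and 0.709% on control arrays. The share does not depend on the scaling, and its groups did not overlap. It averaged 1.01% ± 0.025 in LPS and 0.689% ± 0.017 in control (SD, n = 3 each), a difference of 0.319 percentage points (two-sided exact permutation test, p = 0.1, the smallest possible). Within the first slide row, LPS 1 alone against the controls, the difference was 0.292 percentage points. With the gene total of the files it was 0.545. Most of the signal was that of miR-22-3p, at 3375 to 4000.5 of a member sum of 5876 to 7033 in LPS. In control it was 406 to 484 of 709 to 816. Without scaling, the median log2 change was 3.09 for the 4 members detected on all arrays and 2.99 for the 198, so the rise in share is not particular to the members. A share adds probes of different brightness per molecule, so it is a share of fluorescence and not of molecules.

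The authors' deposited value table is in log2 units, its columns have medians of 2.73 to 2.74, and its normalization is unknown. In it the order of the groups was the same for the members detected on all arrays. The table gave miR-223-3p 6.96 ± 0.037 in LPS and 6.44 ± 0.19 in control, and miR-142a-3p 6.56 ± 0.16 in LPS and 6.25 ± 0.13 in control (SD, n = 3 each). It gave miR-342-3p 9.85 ± 0.044 in LPS and 9.13 ± 0.035 in control, and miR-22-3p 10.26 ± 0.092 in LPS and 9.60 ± 0.016 in control. For miR-342-5p it held 2.87 ± 0.016 in LPS and 2.86 ± 0.083 in control, near the column medians.

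The miRNAs whose profiles over the 6 arrays were nearest to each member were found by the distance between log2 values centred on their own mean, among the 198, as a description. Nearest to miR-223-3p were miR-19b-3p (distance 0.059) and miR-301a-3p (0.061). Nearest to miR-342-3p were miR-132-3p (0.066) and miR-7005-5p (0.094), and nearest to miR-22-3p were miR-34a-5p (0.053) and miR-19a-3p (0.054). miR-142a-3p had no neighbour as near, with miR-186-5p at 0.167 and miR-96-5p at 0.217, both well above background on no control array. The median distance to all others ran from 1.38 to 1.46, and nearness here rests mostly on a like difference between the groups.

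Of 5 other products of the same precursors or transcripts, 3 were tested and called higher, with 65.5% as the background. miR-425-5p, made from the same transcript as miR-191, had scaled means of 365 ± 12.7 in LPS and 76.6 ± 2.48 in control (SD, n = 3 each) and rose by 2.25 (SE 0.046; limma, adjusted p = 4.28e-08), being well above background on 2 of 3 control arrays. miR-22-5p and miR-191-3p were detected in LPS only and could pass the filter only through LPS. Their fitted changes were 0.68 and 0.54, with no bound above 1. miR-425-3p and miR-142b, which is read from the opposite strand of the miR-142 locus, were detected on 0 arrays.

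Among 28 other miRNAs known from blood cells and macrophages, 25 were on the array and 23 were tested. In limma 23 were called higher and 0 lower at an adjusted 0.05, where 65.5% of all 412 tested were called higher. The tested ones not detected on all 6 arrays were detected on 0 control arrays and could pass the filter only through LPS. This list was drawn up with earlier results of these data in view and gives no independent support for a direction. For the 19 detected on all 6 arrays the median change was 1.58, against 0.77 over the 198. miR-155-5p, a miRNA that Toll-like receptors switch on, rose by 4.18 (SE 0.067). miR-146b-5p, which dampens that signalling, rose by 3.05 (SE 0.075), and miR-221-3p and miR-222-3p, 2 neighbours that target the cell cycle inhibitor p27, rose by 3.003 (SE 0.045) and 2.74 (SE 0.076). Those are the 4 largest changes of the list among miRNAs detected on all arrays; the 4 members so detected had changes of 0.68 to 1.08.

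The labelled cell type was set against markers of other cells. Sums here are of processed signal before scaling, with values below 0 left out. Before scaling the 75th percentile was 4.67 times as high in LPS, and LPS arrays detected 412 to 446 miRNAs against 213 to 228, so the sums are not compared between groups. Of 7 erythroid and platelet miRNAs on the array, among them miR-451a and miR-126a-3p, 0 were detected on any array, with summed signals of 72.4 to 88.3 in LPS and 50.1 to 64.6 in control. Of 7 lymphocyte miRNAs 3 were detected in LPS, miR-181a-5p, miR-181b-5p and miR-28a-5p, and 0 in control. The sums of the 7 were 162 to 219 in LPS and 18.4 to 19.5 in control. miR-181a-5p and miR-181b-5p were well above background on all 3 LPS arrays, while miR-150-5p, abundant in mature lymphocytes, was detected on 0 arrays. Of 7 epithelial and 7 liver and muscle miRNAs 1 each was detected in LPS, miR-200c-3p and miR-192-5p, and 0 in control. Their lists had sums of 77.5 to 93.9 and 176 to 191 in LPS, and of 18.5 to 25.6 and 34.4 to 36.7 in control. miR-192-5p was well above background on all 3 LPS arrays and miR-200c-3p on 2, while the liver miRNA miR-122-5p was detected on 0 arrays. Of 5 neural miRNAs 3 were detected in LPS, miR-128-3p, miR-219a-5p and miR-138-5p, the first 2 also on control arrays. The sums of the 5 were 849.7 to 991 in LPS and 62.7 to 73.7 in control. miR-128-3p and miR-219a-5p were well above background on all 3 LPS arrays. miR-128-3p, which is expressed well beyond neurons, was 2.07 higher in LPS, while miR-124-3p was detected on 0 arrays. After scaling, the fitted changes of the tested markers ran from 0.18 (miR-28a-5p) to 2.07 (miR-128-3p). The part of other cell types in the results was not tested.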

How the data were processed

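Exosomal RNA of 3 LPS and 3 control samples was measured, grouped by the sample titles. The authors deposited each array's scanner output as linear intensity values; per the file headers, these processed signals were background-subtracted by Agilent Feature Extraction 10.7.1.1, whereas the submitters' processing notes name version 9.1. A log2 value table was deposited too; how it was normalized is not stated in the sources at hand. It correlated with the log2 processed signal at r = 0.896 to 0.963 across the 198 miRNAs detected on all arrays, within arrays.

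Spots were averaged per probe without control and outlier spots, and a miRNA was its brightest probe over the 6 arrays. A probe counted as well above background on an array where the files flag over 50% of its used spots so. Signals were scaled array by array to the 75th percentile of the 198 shared miRNAs, rescaled by the geometric mean of the 6 percentiles, floored at 9.89 and taken to log2. The difference LPS minus control came from limma 3.58.1 (R 4.3.3, functions lmFit and eBayes) over 412 miRNAs, with Benjamini-Hochberg adjustment at 0.05. Pairs and shares were compared by exact permutation of the 6 samples.

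The members and lists were chosen with earlier results of these data known. Named miRNAs are the 8 members, the 2 nearest to each member detected on all arrays, the other products of their precursors, and up to 4 of each list with the highest change in absolute size among those detected on all arrays. Markers named as detected on 0 arrays, miR-28a-5p, and the miRNAs whose totals entered those of members, were named after their values were seen. Sequences and positions are from RefSeq tables (GRCm38.p6). Alternatives varied the scaling, background correction, probe summary, filter, floor, variance model, blocks and samples. On simulated data over 412 miRNAs the fit found 96% of true changes of 0.5 log2 units and 100% of those of 1, and called 9 of 212 unchanged miRNAs. Noise and changes were added to values already scaled and floored, so errors of scaling, floor or background are not covered. No per-sample columns were left unused.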

Additional observations from a re-analysis of the deposited data

How the results depend on the processing

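Of 170 alternative values of the members' changes, 155 kept the direction and the side of the adjusted 0.05; miR-223-3p, miR-342-3p, miR-22-3p and miR-142a-5p did so in every alternative run. miR-142a-3p lost its call with quantile normalization (0.24), normexp (0.15) and within the first slide row (0.43), and with the row as a block it was 0.40. Both row settings set LPS 1 alone against the controls. miR-342-5p was above 0 with no scaling (0.45), the percentile over all miRNAs (0.48), spike-ins (0.45), quantile normalization (0.36), normexp (0.063), the gene total (6.09) and the value table (0.0089), and lost its call with a doubled floor (-0.062), within the first slide row (-0.60), with its own probe totals (0.00) and with the second brightest probe (-0.25). miR-191-5p gave 0.00 with a doubled floor. The own probe totals, the second probe, the row 1 pairs and share, and the alternatives to the bound were chosen after seeing the data. Pair shifts turned with the gene total (-0.66 for miR-223-3p against miR-142a-3p, -0.39 against miR-342-3p and -0.25 against miR-22-3p; -0.27 for miR-342-3p and -0.41 for miR-22-3p against miR-142a-3p), with normexp (-0.62 for miR-223-3p against miR-342-3p, -0.71 against miR-22-3p, and -0.094 for miR-342-3p against miR-22-3p), with the mean over probes (-0.15 for miR-223-3p against miR-342-3p) and in the value table (-0.20 against miR-342-3p and -0.15 against miR-22-3p). The causes were not tested; the gene totals of miR-342-5p in LPS and of miR-223-3p on control 1 hold another miRNA's signal, those of miR-142a-3p, miR-342-3p and miR-22-3p do not. Over all miRNAs, 270 were called higher and 110 lower; the higher count was 115 for those detected on all arrays and 170 with well above background as detection, and the lower count was 59 with the percentile over all miRNAs, 39 with no scaling, 38 with spike-ins and 269 with no filter. Of the calls 71.1% were higher as reported, 85.1% with the percentile over all miRNAs, 90.3% with no scaling, 90.7% with spike-ins and 48.7% with no filter. The bound of miR-142a-5p ran from 1.02 with median scaling to 2.92 with the percentile over all miRNAs, 5.96 with no scaling and 6.68 with spike-ins, and from 1.21 to 1.36 with 1 array left out. Leaving out each array gave 0.98 to 1.099 for miR-223-3p, 0.61 to 0.82 for miR-142a-3p, 1.33 to 1.51 for miR-142a-5p, 0.82 to 0.93 for miR-342-3p, 0.73 to 0.85 for miR-22-3p, -0.73 to -0.58 for miR-342-5p and 0.68 to 0.77 for miR-191-5p, with all calls kept; counts were 264 to 272 higher and 108 to 119 lower. Same-numbered samples did not deviate together (r = -0.40, -0.22 and -0.28 over 198 miRNAs). Deviations from a mean of 3 samples depend on each other, so these values cannot settle whether the numbers pair the samples. With the replicate number as a block, no call of a member changed, and 270 were higher and 110 lower. Dim control signal limits miR-142a-3p, and no level can be set in control for miR-142a-5p, miR-342-5p and miR-191-5p.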

Other observations

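The sum of other miRNAs' signal into a miRNA's total was not special to the members. On the LPS arrays the total exceeded the miRNA's own probe totals for 26.0%, 25.8% and 25.5% of the detected miRNAs, against 29.1%, 28.9% and 28.4% on the control arrays. In every case the excess equalled the total of another miRNA on the same array, within the rounding of the files.

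At the locus of miR-191 and miR-425, whose precursors lie 384 bases apart, only miR-425-5p was detected in both groups. Its processed signals were 689, 844 and 843 in LPS, against 33.0, 36.6 and 36.8 in control, while the probe of miR-191-5p stayed below 0 in control. Probes of the 2 miRNAs differ in length and base content, so their signals are not set against each other.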
